A study of Rattus norvegicus with 2 samples.

Results

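The cells described here are border-associated macrophages that carried many transcripts of Cd163, Clec10a and Ccl24, called high cells below. A cell was a border macrophage when Mrc1, Pf4, Ms4a7 and Stab1 together made up at least 0.15% of its unique molecular identifiers (UMIs, the counted transcript molecules) and S100a8 and S100a9 together gave under 20 UMIs. It was a high cell when Cd163, Clec10a and Ccl24 together gave 3 or more UMIs, and a low cell when they gave 2 or fewer. The rule found 285 high cells among 12243 kept cells, 63 of 4199 from dexamethasone embryos and 222 of 8044 from control embryos. There were 371 low cells from dexamethasone embryos and 612 from control embryos.

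Hippocampi of male rat embryos at gestational day 20 had been dissociated, and microglia isolated by flow cytometry had been sequenced as single cells in droplets. The embryos of one library had been exposed in the womb to the synthetic glucocorticoid dexamethasone, and those of the control library had not. Each library pooled 7 embryos, so there was 1 library per group and no replicate: no test between the groups could be made, the exposure and the library cannot be told apart, and all intervals below are exact 95% intervals that cover counting error only. Strain, dose and time of exposure are not given in the sources used here, nor is the marker used for the sort.

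Border-associated macrophages are the resident macrophages of the meninges, the perivascular spaces and the choroid plexus. They take up material at the interfaces of blood, cerebrospinal fluid and brain, and they differ from microglia of the parenchyma in carrying the mannose receptor Mrc1 and the hyaluronan receptor Lyve1. Cd163 is the scavenger receptor for haemoglobin bound to haptoglobin. Clec10a is a C-type lectin that binds galactose and N-acetylgalactosamine. Ccl24 is a chemokine that attracts eosinophils and is induced in macrophages by interleukin-4. A macrophage expressing them is commonly described as scavenging or alternatively activated.

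RefSeq promoter windows of 2 of these 3 genes are shown because these genes define the cells; each runs from 250 bases before to 50 bases after the annotated start on the GRCr8 assembly, 5′ to 3′. Capitals mark matches to GAGGAA (the core of sites of the macrophage factor PU.1), TGCTGA (a core element bound by MAF factors), TTCNNNNGAA (a STAT6 site) or AGAACA (a hexamer bound by the glucocorticoid receptor), each searched on both strands.
Cd163, chr4:158770524-158770823, plus strand: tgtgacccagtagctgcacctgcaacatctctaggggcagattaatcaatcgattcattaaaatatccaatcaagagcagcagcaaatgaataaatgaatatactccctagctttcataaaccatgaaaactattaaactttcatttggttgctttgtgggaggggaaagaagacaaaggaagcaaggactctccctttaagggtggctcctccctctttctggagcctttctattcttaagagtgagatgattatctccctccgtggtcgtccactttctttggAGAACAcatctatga
Ccl24, chr12:26737173-26737472, plus strand: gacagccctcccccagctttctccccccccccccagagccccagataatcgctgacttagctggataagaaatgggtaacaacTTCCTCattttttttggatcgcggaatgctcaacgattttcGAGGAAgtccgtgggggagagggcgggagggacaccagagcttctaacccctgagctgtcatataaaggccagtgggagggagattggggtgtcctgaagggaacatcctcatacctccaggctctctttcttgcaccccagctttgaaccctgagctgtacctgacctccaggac
The Cd163 window held 1 match, to AGAACA, and the Ccl24 window held 2 matches, both to GAGGAA. Such matches were common. Of 33469 windows of 300 bases, 27.6% held GAGGAA, 18.4% TGCTGA, 7.28% TTCNNNNGAA and 20.7% AGAACA, so these matches are a description of the letters only.

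The median depth was 9553 UMIs in dexamethasone high cells and 8582.5 in control high cells, and 8069 UMIs in dexamethasone low cells and 6109 in control low cells. Mitochondrially encoded genes made up 3.52% of the summed UMIs of dexamethasone high cells and 5.50% of those of control high cells. Of the barcodes, 5 were shared between the libraries and none of these was a high cell. No doublet caller was run and no doublet was removed. Of the high cells, 12 of 63 (19.0%) from dexamethasone embryos and 32 of 222 (14.4%) from controls carried 3 or more UMIs of the microglia genes Tmem119, P2ry12 and Sall1 together. Of the low cells, 117 of 371 (31.5%) from dexamethasone embryos and 185 of 612 (30.2%) from controls did so.

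Cells with 3 or more microglia UMIs and a border share below the gate were set beside the high cells for the genes that identify border macrophages. Since the rule chose both sides by 4 of these genes, their sum is a description. The 23 genes of that list summed to 23260 counts per 1000000 UMIs (CPM) in dexamethasone high cells and 13187 CPM in dexamethasone microglia, and to 28511 CPM in control high cells and 14521 CPM in control microglia. Without the 4 gate genes, the other 19 summed to 19665 CPM in dexamethasone high cells and 12831 CPM in dexamethasone microglia, and to 24165 CPM in control high cells and 14222 CPM in control microglia. In low cells these 19 summed to 21134 CPM for dexamethasone, above the high cells, and to 23289 CPM for control. The summed level was thus not particular to high cells. Of the 17 microglia identity genes, 2 were at 0 in dexamethasone high cells. The list summed to 3867 CPM there and to 3585 CPM in control high cells, so the cells also carried transcripts of that list. Against the microglia, which were chosen by microglia UMIs, 14 of 15 measured members were lower in dexamethasone high cells. In control high cells 15 of 16 were lower. The median log2 ratios were -1.03 and -1.60.

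Markers of several other cell types were low in high cells. The 16 neuron markers summed to 0 CPM in dexamethasone high cells, with all 16 at 0, and to 25 CPM in control high cells, with 6 at 0. The 12 megakaryocyte and platelet markers summed to 19.9 CPM in dexamethasone high cells and 19.7 CPM in control high cells, with 9 and 8 of them at 0. They summed to 18 CPM in dexamethasone low cells and 79.3 CPM in control low cells. The 15 lymphocyte and mast cell markers summed to 55.5 CPM in dexamethasone high cells and 90.9 CPM in control high cells, nearly all of it Cd79b. Control low cells held 284 UMIs of the mast cell tryptase Tpsb2, where control high cells held 0, and the part of such cells in the high-to-low ratios was not tested. Other lists were not near 0. The 20 granulocyte and monocyte markers summed to 302 CPM in dexamethasone high cells, of which Plac8 gave 246, and to 84.2 CPM in control high cells. The 17 erythroid markers summed to 259 CPM in dexamethasone and 509 CPM in control high cells, with 7 and 8 of them at 0. The 13 dendritic cell markers summed to 508 CPM in dexamethasone and 411 CPM in control high cells, with 8 at 0 in each.

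The values that chose the cells differed between the libraries in shape as well as in number. Dexamethasone high cells carried a median of 6 UMIs of the 3 genes and at most 32, and control high cells a median of 12 and at most 42. Of 63 dexamethasone high cells, 28 held 3 to 5 UMIs, 22 held 6 to 11 and 13 held 12 or more. Of 222 control high cells, 55 held 3 to 5, 43 held 6 to 11 and 124 held 12 or more. Control high cells thus lay further above the cut than dexamethasone high cells. Just inside the cut, 14 dexamethasone and 25 control cells held 3 UMIs. Just outside it, 29 dexamethasone and 34 control cells held 2.

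**Figure D1:**
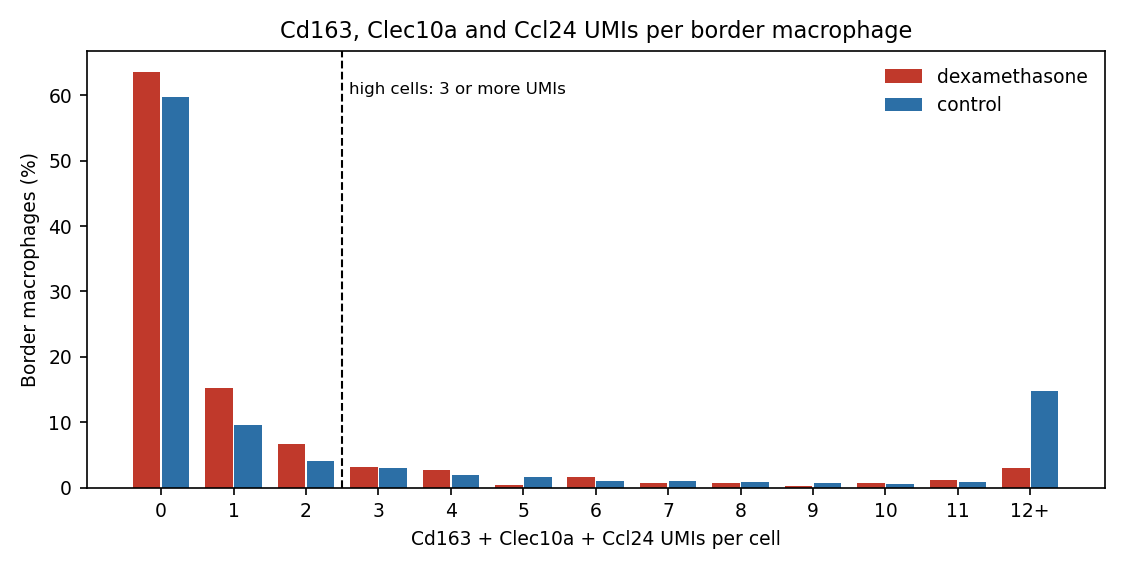
Share of border macrophages (%, vertical axis) by the summed Cd163, Clec10a and Ccl24 UMIs of a cell (horizontal axis; the last bars hold cells with 12 or more), with 434 dexamethasone cells (red, left) and 834 control cells (blue, right). The dashed line is the cut at 3 UMIs; 13 dexamethasone and 124 control cells fall in the last bars.

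Cd163 and Clec10a carried the call in the dexamethasone library, and Ccl24 was scarce there. Cd163 alone was present in 23 of 63 dexamethasone high cells (36.5%, 24.7% to 49.6%) and in 30 of 222 control high cells (13.5%, 9.31% to 18.7%). Each of the 3 genes was present in 4 of 63 dexamethasone high cells (6.35%, 1.76% to 15.5%) and in 103 of 222 control high cells (46.4%, 39.7% to 53.2%). A Ccl24 UMI was found in 6 dexamethasone high cells (9.52%) and in 122 control high cells (55.0%), and a Clec10a UMI in 39 (61.9%) and 178 (80.2%). Neurons that should lack Ccl24 held it in 0 of 62 dexamethasone cells (median 9052.5 UMIs) and 0 of 213 control cells (median 5573 UMIs), which by 3 counts of the total allows shares of up to 4.84% and 1.41%. With every cell thinned to 3600 UMIs, which left out 0 dexamethasone and 7 control high cells, a Ccl24 UMI remained in 4.76% of dexamethasone and 34.4% of control high cells. The name Ccl24-high therefore fitted many control high cells and few dexamethasone ones.

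High cells were scarcer after dexamethasone exposure than in controls. Their share was 1.5% of kept dexamethasone cells (1.15% to 1.92%) and 2.76% of kept control cells (2.41% to 3.14%), a difference of -1.26 percentage points (-1.77 to -0.72). Of all border macrophages, the high class was 14.5% (11.3% to 18.2%) for dexamethasone and 26.6% (23.6% to 29.8%) for control, a difference of -12.1 points (-16.6 to -7.38). Border macrophages as a whole, high and low together, numbered 434 of 4199 kept dexamethasone cells and 834 of 8044 kept control cells. The difference kept its sign in all 11 alternatives run, from -1.56 to -0.99 points of kept cells and from -16.0 to -9.50 points of border macrophages. With all cells thinned to one depth the difference was -1.56 points of kept cells.

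Of 8326 genes with at least 20 UMIs over high and low cells in each library, 44 were at least 2-fold higher in high cells in both libraries (0.528%) and 74 at least 2-fold lower (0.889%). Within a library, 170 of 8369 genes in dexamethasone cells (2.03%) and 275 of 9256 in control cells (2.97%) were at least 2-fold higher, and 490 (5.85%) and 515 (5.56%) at least 2-fold lower. The high cells were chosen by expression, so these are descriptions of the class and carry no test. The genes of the cut followed the cut. Cd163 stood at 397 CPM in dexamethasone high cells, against 31.3 in dexamethasone low cells, and at 581 CPM in control high cells, against 25.1 in control low cells. Clec10a stood at 336 CPM in dexamethasone high against 6.51 CPM in low cells, and at 726 CPM in control high against 7.28 CPM in low cells. Ccl24 stood at 37.0 CPM in dexamethasone high against 0.62 CPM in low cells, and at 182 CPM in control high against 2.35 CPM in low cells, where the low cells held 2 UMIs in the dexamethasone and 10 in the control library.

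Of the 3 markers that the cut did not use, Pmp22 separated the cells furthest. Pmp22, a tetraspan membrane protein best known from myelin, was at 127 CPM in dexamethasone high cells and 32.9 in low cells (log2 ratio 1.95, 1.52 to 2.37), and at 372 CPM in control high cells and 38.5 in low cells (3.27, 3.03 to 3.53). Fcna, the lectin ficolin A that starts the lectin pathway of complement, was at 957 and 543 CPM in dexamethasone high and low cells, and at 1646 and 408 CPM in control high and low cells. Cfd, complement factor D of the alternative pathway, was at 262 and 173 CPM in dexamethasone high and low cells, and at 412 and 166 CPM in control high and low cells. Low cells of both libraries lay close to each other for Pmp22 and Cfd, and the high cells lay apart. Just inside the cut, at 3 UMIs, Pmp22 was at 59.4 CPM in dexamethasone and 161 CPM in control cells, from 9 and 30 UMIs. Just outside it, at 2 UMIs, Pmp22 was at 37.8 CPM in dexamethasone and 31.6 CPM in control cells, from 10 and 7 UMIs, and at 1 UMI it was at 39.9 CPM in dexamethasone and 78.3 CPM in control cells.

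**Figure D2:**
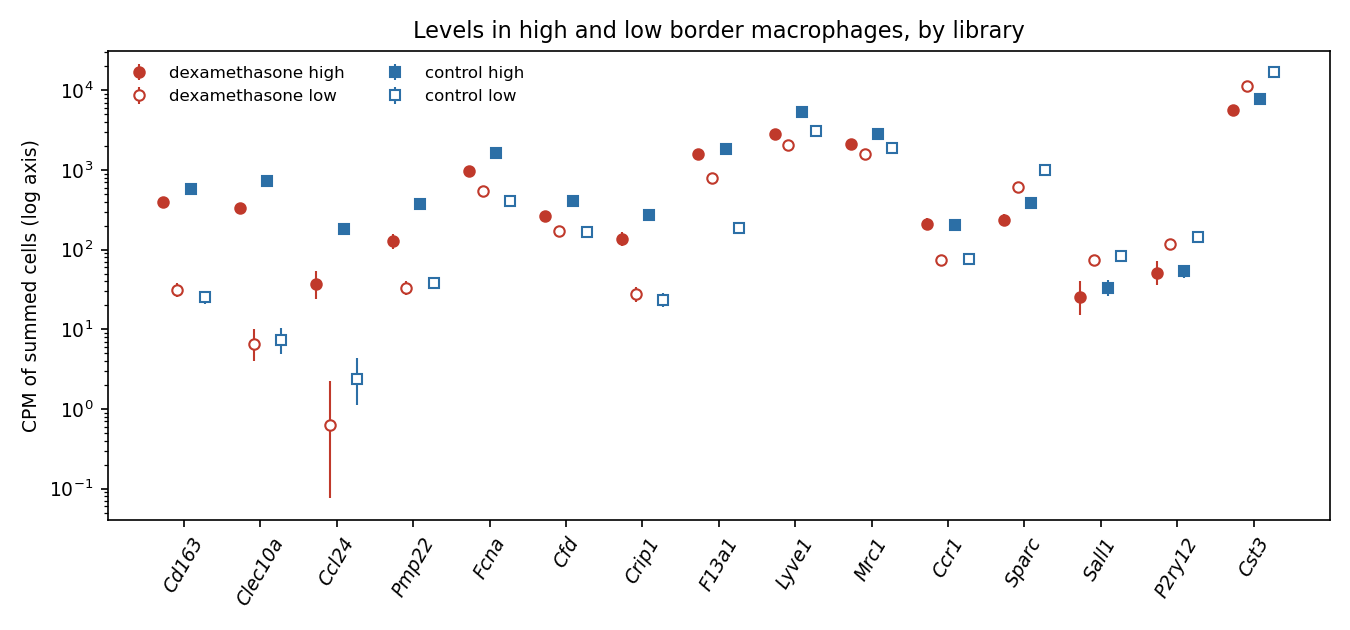
Summed CPM (log axis) of 15 genes in dexamethasone high and low cells (red, filled and open circles) and control high and low cells (blue, filled and open squares), with exact 95% Poisson intervals that cover counting error only. High cells lie above low cells of their own library for the 11 genes from Cd163 to Ccr1 and below them for the 4 genes from Sparc to Cst3.

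Among genes outside the rule, 15 were named as the highest in high over low cells by the smaller of the library ratios. Crip1, a small LIM-domain protein, led them, at 135 CPM in dexamethasone high cells against 27.6 in low cells and 269 CPM in control high cells against 23.5 in low cells. Its UMIs were concentrated: 38 of 63 dexamethasone and 124 of 222 control high cells had none, and 5 dexamethasone cells held 72.6% of the dexamethasone UMIs. In dexamethasone high cells at 3 to 5 UMIs of the 3 genes Crip1 was at 24.4 CPM, no higher than in low cells. The adaptor Samsn1 was at 78.3 CPM in dexamethasone high against 24.2 CPM in low cells, and at 102 CPM in control high against 22.5 CPM in low cells. S100a10, the partner of annexin A2, was at 69.8 CPM in dexamethasone high against 32.3 CPM in low cells, and at 110 CPM in control high against 14.8 CPM in low cells. The chemokine receptor Ccr1 was at 211 CPM in dexamethasone high cells against 73.5 in low cells, and at 206 CPM in control high cells against 77.0 in low cells, a log2 ratio of 1.52 (1.21 to 1.82) and 1.42 (1.21 to 1.63). Ccr1 was thus at nearly the same level in the high cells of both libraries. With the border gate at 0.30%, S100a10 was not higher in dexamethasone high cells (log2 ratio -0.0384).

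F13a1, which encodes a subunit of clotting factor XIII and is a known gene of border macrophages, was at 1582 CPM in dexamethasone high cells and 1807 CPM in control high cells. It was at 786 CPM in dexamethasone low cells and 188 CPM in control low cells, so its high-to-low log2 ratio was 1.01 (0.91 to 1.11) in dexamethasone cells and 3.26 (3.15 to 3.38) in control cells. The others of the 15, which also held Pmp22, were the ubiquitin ligase Wwp1, Lst1, Cd74, the secreted protein Fam3b, the scaffold Iqgap2, Spats2l, the purine salvage enzyme Hprt1, Ctla2a and the B cell receptor component Cd79b. Apart from Cd74, treated below with the genes of antigen presentation, their log2 ratios ran from 0.89 for Cd79b to 1.32 for Wwp1 in dexamethasone cells and from 0.99 for Cd79b to 1.60 for Ctla2a in control cells. In cells thinned to one depth, Lst1 had -0.0451 in dexamethasone cells. Hprt1 stood at 164 and 87.5 CPM in dexamethasone high and low cells and at 171 and 62.7 CPM in control high and low cells.

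The lowest genes were led by genes of microglia. Slc2a5, a fructose transporter used as a microglia marker, was at 24.2 CPM in dexamethasone high cells against 63.9 in low cells, and at 31.3 CPM in control high cells against 82.4 in low cells. Sall1, the transcription factor that maintains microglia, was at 25.6 CPM in dexamethasone high against 74.7 CPM in low cells, and at 33.2 CPM in control high against 81.9 CPM in low cells. P2ry12, the purinergic receptor of microglia, was at 51.3 CPM in dexamethasone high against 118 CPM in low cells, and at 53.4 CPM in control high against 144 CPM in low cells. The matricellular protein Sparc, also on the microglia list, was at 238 CPM in dexamethasone high against 611 CPM in low cells, and at 384 CPM in control high against 1010 CPM in low cells. Of the 17 microglia identity genes in the files, 15 were measured, and all 15 were lower in high than low cells in both libraries, with a median log2 ratio of -0.53 in dexamethasone cells and -1.25 in control cells. As given above, 19.0% and 14.4% of high cells and 31.5% and 30.2% of low cells held 3 or more microglia UMIs. An alternative without those cells was run, with 51 dexamethasone and 190 control high cells, and 254 and 427 low cells. Its values for these microglia genes are not reported here, so the part of those cells in these ratios is not given.

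The rest of the lowest genes described here were not microglia genes by the list. The protease inhibitor Cst3 was at 5652 CPM in dexamethasone high against 11327 CPM in low cells, and at 7735 CPM in control high against 16748 CPM in low cells. The complement protease C2 was at 35.6 CPM in dexamethasone high against 75.7 CPM in low cells, and at 39.9 CPM in control high against 97.4 CPM in low cells. Slc43a3, Tuba1a, RT1-CE5, Fcrl2, Scd2, Sort1, Filip1 and Chd3 were lower too, with log2 ratios from -1.25 for Tuba1a to -0.86 for Chd3 in dexamethasone cells and from -1.58 for RT1-CE5 to -0.84 for Chd3 in control cells.

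**Figure D3:**
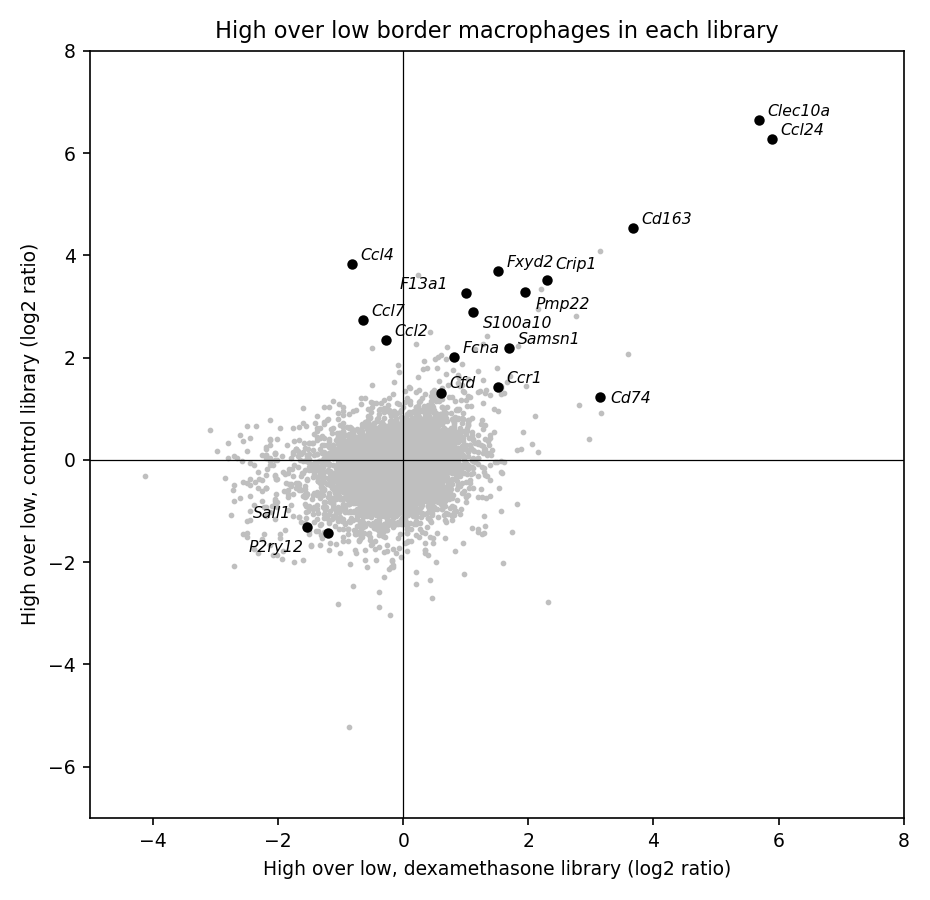
Log2 ratio of high over low cells in the dexamethasone library (horizontal axis) and the control library (vertical axis), 1 grey point per gene with at least 20 UMIs in each library, with named genes in black. Clec10a, Ccl24 and Cd163, the genes of the cut, lie at the upper right; Ccl4, Ccl7 and Ccl2 lie left of 0 in dexamethasone cells and above 2 in control cells.

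Over all measured genes, the median high-to-low log2 ratio was -0.07 in the dexamethasone library, where 3555 of 8369 (42.5%) were higher in high cells, and -0.06 in the control library, where 4089 of 9256 (44.2%) were. Of 21 measured border macrophage identity genes, 4 of which made the gate, 17 were higher in dexamethasone high cells and 18 in control high cells, with medians of 0.42 and 0.37. Without the gate genes these were 13 and 14 of 17, with medians of 0.41 and 0.57. Lyve1 was at 2821 CPM in dexamethasone high cells against 2043 in low cells, and at 5369 CPM in control high cells against 3100 in low cells. In summed counts the gate genes themselves differed by under 2-fold. Mrc1 was at 2122 CPM in dexamethasone high against 1575 CPM in low cells, and at 2840 CPM in control high against 1862 CPM in low cells. Stab1, a scavenger receptor, was at 158 CPM in dexamethasone high against 136 CPM in low cells, and at 151 CPM in control high against 131 CPM in low cells. Ms4a7 was at 263 CPM in dexamethasone high against 185 CPM in low cells, and at 202 CPM in control high against 197 CPM in low cells. Pf4 was at 1051 CPM in dexamethasone high against 783 CPM in low cells, and at 1153 CPM in control high against 1081 CPM in low cells. With the border gate at 0.30%, control high cells had less Pf4 (log2 ratio -0.71) and Stab1 (-0.21) than control low cells. By means per cell Pf4 was lower in high than low cells of both libraries, with log2 ratios of -0.26 for dexamethasone and -1.27 for control. Apoe, the main apolipoprotein of brain macrophages, was lower in high cells, at 10541 CPM in dexamethasone high against 14860 CPM in low cells, and at 10938 CPM in control high against 15838 CPM in low cells.

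Of 13 measured scavenger and endocytic receptors, 10 were higher in dexamethasone high cells and 8 in control high cells, with medians of 0.33 and 0.48; without the gate genes Mrc1 and Stab1 these were 8 and 6 of 11. Colec12, a scavenger receptor with a collectin domain, was at 751 CPM in dexamethasone high against 369 CPM in low cells, and at 760 CPM in control high against 493 CPM in low cells. Cd68, a lysosomal glycoprotein of macrophages, was at 578 CPM in dexamethasone high against 393 CPM in low cells, and at 571 CPM in control high against 335 CPM in low cells. Among C-type lectins and related genes, which include Clec10a and Mrc1, 10 of 11 were higher in dexamethasone high cells and 8 of 14 in control high cells, with medians of 0.70 and 0.20. Without those 2 genes of the rule, 8 of 9 were higher in dexamethasone high cells and 6 of 12 in control high cells, so the control lectins did not lean one way. Lgals9, a galectin, was at 49.9 CPM in dexamethasone high against 11.2 CPM in low cells, and at 106 CPM in control high against 13.6 CPM in low cells.

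Complement genes as a group did not lean one way. Of those measured, 7 of 16 were higher in dexamethasone high cells and 7 of 17 in control high cells, with medians of -0.13 and -0.11. C1qb, a chain of C1q, was at 9927 CPM in dexamethasone high against 11100 CPM in low cells, and at 8464 CPM in control high against 9153 CPM in low cells, and C1qc was at 9107 CPM in dexamethasone high against 8996 CPM in low cells, and at 8203 CPM in control high against 6674 CPM in low cells. Fcna and Cfd were thus among the higher members of a mixed list.

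Genes of haem and iron handling, to which Cd163 belongs, were higher in 12 of 22 cases in dexamethasone high cells and 16 of 23 in control high cells, with medians of 0.13 and 0.24. Without Cd163 these were 11 of 21 and 15 of 22, with medians of 0.08 and 0.22. Blvra, a biliverdin reductase of haem breakdown, was at 28.5 CPM in dexamethasone high cells against 9.30 in low cells, and at 62.0 CPM in control high cells against 25.1 in low cells. Hmox1, the haem oxygenase, was at 239 CPM in dexamethasone high against 243 CPM in low cells, and at 381 CPM in control high against 216 CPM in low cells. The list of alternative activation by interleukin-4 and interleukin-13, which holds Clec10a, Ccl24 and Mrc1, was higher in 7 of 12 measured members in dexamethasone high cells and 9 of 15 in control high cells, with medians of 0.05 and 0.53. Without those 3 genes of the rule it was higher in 4 of 9 members in dexamethasone high cells and 6 of 12 in control high cells. In thinned cells the control median was -0.0374. Growth factor and matrix genes were lower in 13 of 20 measured members in dexamethasone high cells, where 57.5% of all measured genes were lower. In control high cells 16 of 22 were lower, where 55.8% of all measured genes were. The list medians were -0.22 and -0.26. Of this list, the signalling ligand Bmp2 was at 21.4 CPM in dexamethasone high against 4.65 CPM in low cells, from 15 and 15 UMIs. It was at 33.2 CPM in control high against 3.29 CPM in low cells, from 69 and 14 UMIs.

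The macrophage transcription factors showed little difference by their medians, 0.02 over 23 measured in dexamethasone cells and 0.15 over 26 in control cells. Spi1, which encodes PU.1, was at 259 CPM in dexamethasone high against 227 CPM in low cells, and at 263 CPM in control high against 265 CPM in low cells. Lysosomal genes were mostly lower in high cells, 21 of 28 in dexamethasone high cells and 26 of 29 in control high cells, with medians of -0.21 and -0.45. Genes of the G2 and M phases were lower in 32 of 36 in dexamethasone high cells and 36 of 40 in control high cells, with medians of -1.11 and -0.53. In thinned cells the dexamethasone median was 0.0707. Mki67, a marker of dividing cells, was at 79.8 CPM in dexamethasone high cells against 136 in low cells, and at 111 CPM in control high cells against 199 in low cells. By a count of at least 2 UMIs of Mki67 and Top2a, 7 of 63 dexamethasone high cells (11.1%) and 24 of 222 control high cells (10.8%) were cycling, against 53 of 371 (14.3%) and 95 of 612 (15.5%) low cells.

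Between the libraries, 7614 genes had at least 20 UMIs over the high cells of both. Of these, 196 (2.57%) were at least 2-fold higher in dexamethasone than control high cells and 423 (5.56%) at least 2-fold lower. In low cells the same counts were 146 (1.54%) and 234 (2.47%) of 9484. The median log2 ratio over all measured genes was -0.04 in high cells, where 4169 of 7614 (54.8%) were lower in dexamethasone cells, and -0.03 in low cells. All 6 markers of the class were lower in dexamethasone high cells, 3 of them at least 2-fold, with a median of -0.95. For Cd163, Clec10a and Ccl24 this follows the distribution of UMIs above the cut and is a description: Ccl24 had a log2 ratio of -2.30 (-2.93 to -1.73), Clec10a -1.11 (-1.31 to -0.91) and Cd163 -0.55 (-0.74 to -0.36). Of the 26 Ccl24 UMIs in dexamethasone high cells, 1 cell held 12, and without it the level was 20.2 CPM in place of 37.0.

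Several genes that marked the high cells were at lower levels in dexamethasone high cells. Pmp22 stood at 127 CPM in dexamethasone high cells and 372 CPM in control high cells, a log2 ratio of -1.55 (-1.89 to -1.24), and at 32.9 and 38.5 CPM in low cells (-0.23, -0.59 to 0.13). Fxyd2, a regulator of the sodium pump, stood at 28.5 and 133 CPM in dexamethasone and control high cells (-2.23, -2.96 to -1.57) and at 9.92 and 10.3 CPM in dexamethasone and control low cells. Fxyd2 was also higher in high than low cells, with a log2 ratio of 1.52 in dexamethasone cells and 3.69 in control cells. Nck1, an adaptor of receptor signalling, stood at 113 and 283 CPM in dexamethasone and control high cells and at 77.2 and 81.2 CPM in low cells. Ehd1, Frmd4b, Anxa5 and the globin Hba-a2 were lower too, with log2 ratios from -2.31 for Anxa5 to -1.35 for Ehd1. In low cells they were lower as well, from -1.28 for Anxa5 to -0.38 for Frmd4b. Of the 176 Anxa5 UMIs in control high cells, 1 cell held 44.

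Because dexamethasone high cells lay nearer the cut, the libraries were also set side by side within classes of the UMIs of the 3 genes. The classes did not make the genes of the cut equal. At 3 to 5 UMIs, Cd163 was at 278 and 357 CPM in dexamethasone and control cells, and Clec10a at 66.1 and 109 CPM. At 6 to 11 they were at 450 and 381 CPM, and 319 and 437 CPM. At 12 or more they were at 519 and 716 CPM, and 792 and 1016 CPM. Pmp22 was lower in dexamethasone cells in each class, at 55.7 CPM in dexamethasone and 182 CPM in control cells at 3 to 5 UMIs, 127 and 252 CPM at 6 to 11, and 240 and 471 CPM at 12 or more. In the last class its log2 ratio was -0.97 (-1.46 to -0.53), smaller than over all high cells. Fxyd2 stood at 6.96 and 46.1 CPM in dexamethasone and control cells of the first class, 17.0 and 111 CPM, and 78.1 and 168 CPM. The dexamethasone values of Fxyd2 rest on 2, 4 and 14 UMIs, and the dexamethasone intervals of its first 2 classes overlap each other. Between the libraries its log2 ratio was -2.73 (-5.87 to -0.68) at 3 to 5 UMIs and -2.71 (-4.65 to -1.25) at 6 to 11. The control cells were above the dexamethasone cells in each of these classes for both genes. In high cells without a Clec10a UMI, Pmp22 was at 76.7 CPM in dexamethasone and 88.2 CPM in control cells (log2 ratio -0.20, -1.09 to 0.65). In Clec10a carriers it was at 156 and 432 CPM (-1.47, -1.84 to -1.11). Among Ccl24 carriers the Pmp22 ratio was -0.39 (-1.03 to 0.19), and among the other high cells -1.49 (-1.90 to -1.09). For Fxyd2 these were -1.24 (-2.88 to 0.01) and -2.07 (-2.97 to -1.28).

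Along the same classes, the summed levels of Fcna, Lyve1 and Cst3 were also lower in dexamethasone cells in each class, while F13a1 changed direction. For Fcna at 3 to 5 UMIs the log2 ratio was -0.28 (-0.57 to 0.01). Fcna stood at 536 and 650 CPM in dexamethasone and control cells at 3 to 5 UMIs, 1185 and 1504 CPM at 6 to 11, and 1334 and 2013 CPM at 12 or more. Lyve1 stood at 2355 and 2758 CPM in dexamethasone and control cells of the first class, 2888 and 4469 CPM, and 3482 and 6498 CPM. F13a1 turned with the class, at 1176 CPM in dexamethasone and 538 CPM in control cells at 3 to 5 UMIs, 1801 and 1080 CPM at 6 to 11, and 1947 and 2446 CPM at 12 or more. Its log2 ratio of dexamethasone over control was 1.13 (0.88 to 1.38) in the first class and -0.33 (-0.49 to -0.17) in the last. Cst3 was lowest in the last class, at 7108 and 10378 CPM in dexamethasone and control cells of the first class, 5271 and 10949 CPM, and 3817 and 5875 CPM. Over all classes, 5 of 222 control high cells held 25.6% of the control Cst3 UMIs. The median Cst3 level per high cell was 4704 CPM in dexamethasone and 4556 CPM in control cells. Dexamethasone cells of these classes numbered 28, 22 and 13, so the last class rests on few cells.

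**Figure D4:**
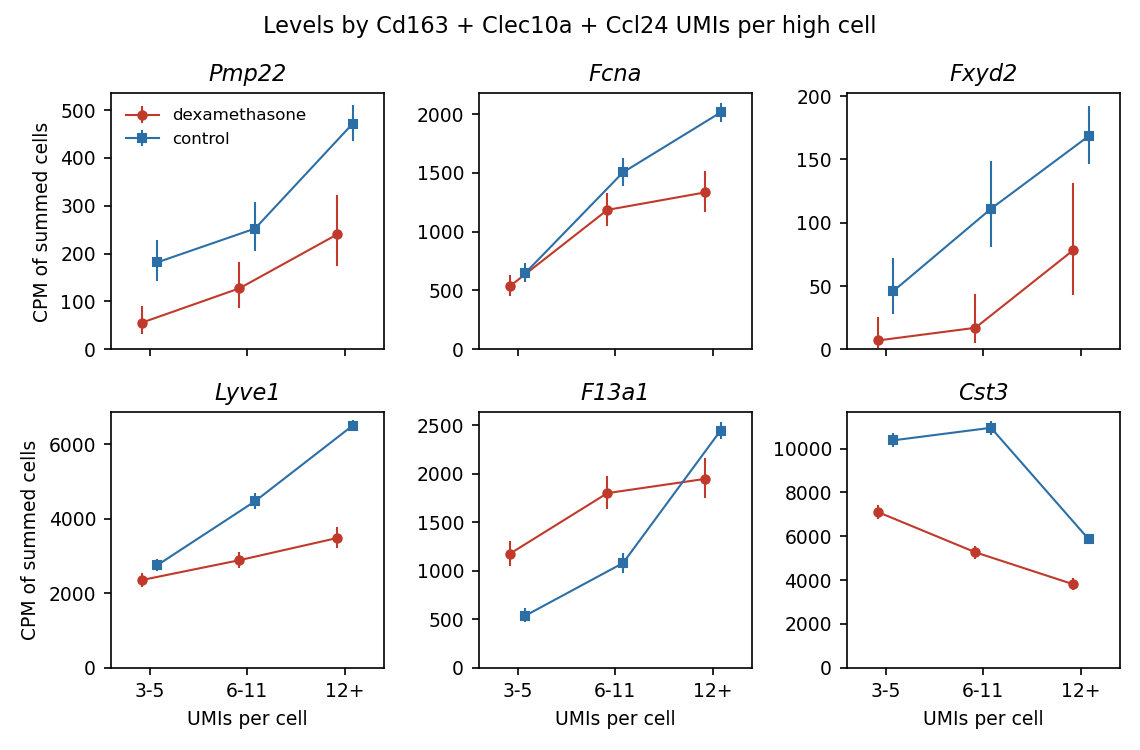
Summed CPM (vertical axes, from 0) of 6 genes in high cells by their Cd163, Clec10a and Ccl24 UMIs (3 to 5, 6 to 11, and 12 or more) in the dexamethasone library (red circles, left) and the control library (blue squares, right), with exact 95% Poisson intervals. Pmp22 and Fxyd2 are lower in dexamethasone cells in every class, and F13a1 is higher at 3 to 5 and 6 to 11 UMIs and lower at 12 or more.

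Genes of antigen presentation by MHC class II led the genes named as higher in dexamethasone over control high cells, and a few cells held nearly all of them in the dexamethasone library. RT1-Da, an MHC class II chain, stood at 346 CPM in dexamethasone high cells and 24.0 CPM in control high cells, RT1-Db1 at 205 and 18.8 CPM, RT1-Ba at 178 and 20.7 CPM, and the invariant chain Cd74 at 600 and 122 CPM. In the dexamethasone library 4 of 63 high cells held 99.5% of the UMIs of these genes and of RT1-Bb. These 4 cells had border gene shares of 0.155% to 0.211%, close to the cut of 0.15%, and together held 57 Clec10a but only 6 Cd163 UMIs. In the control library 4 of 222 high cells held 81.9%. Without cells of 20 or more such UMIs in either library, a choice made after seeing the data, the Cd74 log2 ratio was -2.83 in place of 2.30, that of high over low dexamethasone cells was -1.88 in place of 3.14, and the summed level was 7.90 CPM in dexamethasone and 35.0 CPM in control high cells. Both Cd74 ratios rest on 2 UMIs in the 59 remaining dexamethasone high cells. The 218 remaining control high cells held 45 Cd74 UMIs, with up to 12 in a cell.

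Other genes were higher in dexamethasone high cells also without those cells. Lyz2, the lysozyme of macrophages, stood at 1446 CPM in dexamethasone and 494 CPM in control high cells (log2 ratio 1.55, 1.42 to 1.67), with a ratio of 1.21 without the MHC-rich cells. In high cells without a Clec10a UMI, 24 from dexamethasone embryos and 44 from controls, Lyz2 was at 671 CPM in dexamethasone and 736 CPM in control cells (-0.13, -0.42 to 0.15), and 5 of 63 dexamethasone cells held 48.9% of its UMIs. Lyz2 stood at 394 CPM in dexamethasone and 429 CPM in control low cells. Plac8, a gene of monocytes and granulocytes, stood at 246 CPM in dexamethasone and 57.7 CPM in control high cells and at 199 CPM in dexamethasone and 46.2 CPM in control low cells, a log2 ratio of 2.09 in high cells and 2.11 in low cells. The 4 MHC-rich dexamethasone cells held 73 of its 173 UMIs, and without the MHC-rich cells the Plac8 ratio in high cells was 1.63. Lsp1 and Rgs1, genes of leukocyte movement and of G protein signalling, were each at 68.4 CPM in dexamethasone and 17.3 CPM in control high cells. The class I gene RT1-A2 was at 433 CPM in dexamethasone and 148 CPM in control high cells and at 731 CPM in dexamethasone and 387 CPM in control low cells. Rps19l2, Rpl30 and Rpl37, of the ribosome, had log2 ratios of 1.61, 1.20 and 1.11 in high cells and 1.87, 1.26 and 1.18 in low cells. Apart from Lyz2, each of these genes was higher in dexamethasone cells of both classes.

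The chemokines Ccl4, Ccl7 and Ccl2 were lower in dexamethasone than control high cells, and 1 control cell carried much of that difference. Ccl4 stood at 24.2 CPM in dexamethasone high cells and 240 CPM in control high cells, Ccl7 at 34.2 and 221 CPM, and Ccl2 at 59.8 and 186 CPM. A single control cell of 20676 UMIs held 453 of 499 Ccl4, 278 of 460 Ccl7 and 268 of 386 Ccl2 UMIs, along with 7 microglia and 15 Mki67 and Top2a UMIs. Without that cell the control levels were 22.3 CPM for Ccl4, 88.4 CPM for Ccl7 and 57.3 CPM for Ccl2, so the lower Ccl4 and Ccl2 of dexamethasone high cells rest on that cell. Over the measured chemokines, 4 of 10 were higher and 6 lower in dexamethasone high cells, with a median of -0.15, a share lower near the 54.8% of all genes. Without Ccl24 and Pf4, which the rule used, 4 of 8 were higher and 4 lower, with a median of -0.04. Ccl6, a macrophage chemokine higher in high than low cells of both libraries, stood at 366 CPM in dexamethasone high cells against 172 in low cells and 342 CPM in control high cells against 194 in low cells.

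**Figure D5:**
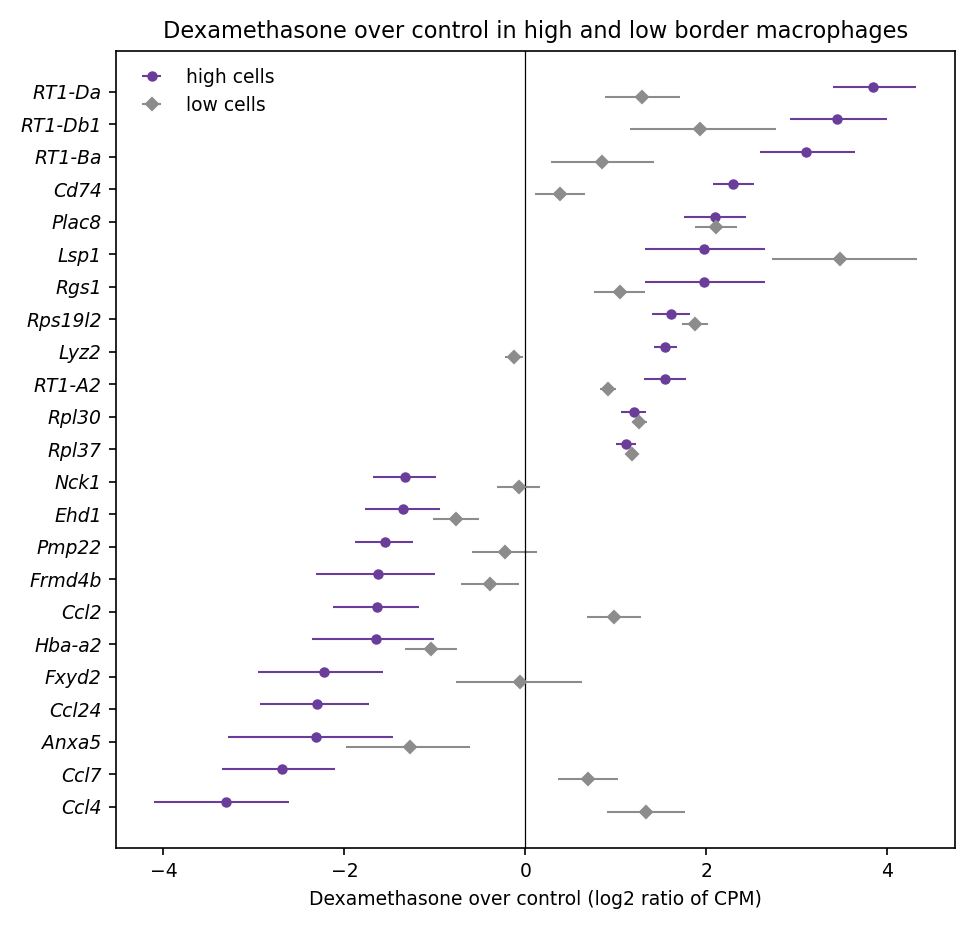
Log2 ratio of dexamethasone over control CPM (horizontal axis) for 23 genes of this comparison, in high cells (purple circles, above) and low cells (grey diamonds), with exact 95% intervals for counting error only; Ccl24 has no value in low cells. Ribosomal genes and Plac8 lie at like values in both classes, and Pmp22, Fxyd2 and Nck1 lie below 0 in high cells with low cells near 0.

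Genes known to respond to the glucocorticoid receptor were mixed in sign in high cells. Of 18 measured of 32 in the files, 8 were higher and 10 lower in dexamethasone high cells, with a median log2 ratio of -0.04 against -0.04 over all measured genes; over the alternatives it ran from -0.195 to 0.161. Of the 18, 5 were at least 2-fold lower and 1 at least 2-fold higher, where 5.56% and 2.57% of all genes were. In low cells 15 of 19 were lower in dexamethasone cells, with a median of -0.39 against -0.03 over all genes. Fkbp5, a feedback inhibitor of the receptor, stood at 12.8 CPM in dexamethasone and 33.7 CPM in control high cells, and Tsc22d3, which encodes the glucocorticoid-induced leucine zipper, at 18.5 and 49.5 CPM. Dusp1, a phosphatase of MAP kinases, stood at 45.6 CPM in dexamethasone and 18.8 CPM in control high cells. The dexamethasone values of these genes rest on 9, 13 and 32 UMIs. Haem and iron genes were lower in 16 of 20 measured members, with a median of -0.29, and in 15 of 19 without Cd163, against 54.8% of all genes, Hmox1 standing at 239 and 381 CPM and Blvra at 28.5 and 62.0 CPM. Genes of alternative activation were lower in 9 of 12, with a median of -0.39, and in 6 of 9 without Clec10a, Ccl24 and Mrc1, against 54.8% of all genes. Erythroid genes were lower in all 6 measured members in high cells and in all 7 in low cells, with medians of -1.19 and -1.03, and the part of red blood cell RNA in other differences was not tested.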

How the data were processed

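The matrices of unique molecular identifier counts per gene and barcode, as deposited by the authors, were analysed, 1 for the dexamethasone library (4328 barcodes, 42611920 UMIs) and 1 for the control library (8342 barcodes, 69940778 UMIs). Per the submitters' processing notes, Cell Ranger 7.0.0 and the Rnor_6.0 build were used; no annotation of that build was used here. Barcodes under 200 genes, or over 20% of UMIs from genes named Mt-, were dropped, leaving 4199 dexamethasone and 8044 control cells. Rows sharing 1 of 176 repeated symbols were summed.

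Counts of the high or low cells of a library were summed per gene and given as CPM of the UMIs of those cells, with exact Poisson intervals. Log2 ratios had exact conditional binomial intervals, and shares Clopper-Pearson intervals, all at 95% and for counting error only. Genes with at least 20 UMIs over both sides of a comparison were measured. No test was run, because each group has 1 library. For shares, cells were thinned to 3600 UMIs. No doublet caller was run.

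The members and the gene lists were chosen with earlier results of these data known. The text names the 15 highest and 15 lowest genes of high over low cells (at least 50 CPM, by the smaller ratio of the 2 libraries), the 12 highest and 12 lowest of dexamethasone over control (by the bound nearest 0), the markers, and for the lists their 2 most abundant and 2 most different members at 20 CPM or more; of these last, only some are printed, and some genes the rule names are not reported here. Of 629 list symbols, 24 had no match and are not analysed here. Mast and other single markers, the MHC class II-rich cells and the chemokine-rich cell were picked out after their values were seen. List counts without the genes of the rule were added after seeing the data. Promoter windows came from RefSeq (GRCr8). Python 3.11.15 with numpy 2.4.6, scipy 1.17.1, pandas 2.3.3 and matplotlib 3.10.9 was used, and the ratio code was tested on simulated data.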

Additional observations from a re-analysis of the deposited data

Results flagged for a closer look

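The following genes had dexamethasone-to-control log2 ratios of opposite sign in high and low cells, with neither counting interval reaching 0. With 1 library per group, none of these differences was tested. F13a1 had -0.19 in high cells and 2.06 in low cells. Fcna had -0.78 in high cells and 0.41 in low cells. Hmox1 had -0.67 in high cells and 0.17 in low cells. Lyz2 had 1.55 in high cells and -0.12 in low cells. Ccl4 had -3.31 in high cells and 1.33 in low cells, Ccl7 had -2.69 and 0.69, and Ccl2 had -1.63 and 0.98.

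Ccl4 and Ccl7 also had high-to-low ratios of opposite sign in the libraries, -0.81 in dexamethasone cells and 3.83 in control cells for Ccl4, and -0.64 and 2.74 for Ccl7. A single control high cell held 90.8% of the Ccl4 UMIs, 60.4% of the Ccl7 UMIs and 69.4% of the Ccl2 UMIs of control high cells. Without it, control high cells had 22.3 CPM of Ccl4, 88.4 of Ccl7 and 57.3 of Ccl2, against 16.9, 33.1 and 36.6 CPM in control low cells.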

How the results depend on the processing

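No paired analysis was possible because each group has 1 library. Of 102 values of the shares, gene counts and glucocorticoid receptor list under 16 alternatives, 83 stayed within their limits and 19 moved. Of 653 list medians, 176 moved by over 0.1, and 10 with a main size of at least 0.2 turned sign. Of 2353 values of named genes, 360 moved outside their main counting interval, and 24 whose main interval excluded 0 turned sign. Sign turns of smaller list medians, or of genes whose interval held 0, were not counted as such. The cause of these moves was not tested, except that fewer cells or genes enter some settings. A side at 0 UMIs was put at 3 counts, which weighs most where few cells remain, as in the 30 thinned dexamethasone high cells. Genes at least 2-fold lower in high cells of both libraries numbered 38 with the cut at 2 UMIs, 127 at 6, 30 with the border gate at 0.30%, 119 from means per cell, 143 for Clec10a carriers, 12 at a minimum of 100 UMIs and 128 with no minimum. Those higher numbered 22 at 0.30%, 15 at 100 UMIs and 205 with no minimum. Between dexamethasone and control high cells, 27 were higher and 67 lower at 100 UMIs, and 921 and 809 with no minimum. The glucocorticoid receptor median was 0.161 at 0.30%, -0.195 in thinned cells, 0.0817 without cells with microglia UMIs, 0.0863 without cycling cells and -0.157 for Clec10a carriers.

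With the gate at 0.30%, high-to-low ratios in the dexamethasone library were -0.45 for the MHC class II median, -2.76 for Cd74, -0.0059 for Pf4, 0.10 for Ccl7 and -0.0384 for S100a10. In the control library they were -0.71 for Pf4 and -0.21 for Stab1. Dexamethasone-to-control values there were -0.0569 for the C-type lectin median, -1.72 for Cd74, 0.0039 for Pf4 and 0.91 for Ccl2. In thinned cells, high-to-low values were 0.0707 for the G2 and M median and -0.0451 for Lst1 in the dexamethasone library, and -0.0374 for the alternative activation median, -2.02 for Ccl4 and -0.50 for Ccl2 in the control library; dexamethasone-to-control values were -0.27 for the C-type lectin median, 0.0758 for the G2 and M median and 1.85 for Ccl2. Dexamethasone-to-control Ccl4 was 0.40 without cells over 2.5 times the median UMIs, 0.11 without cells with microglia UMIs and 0.40 without cycling cells, and Ccl2 was 0.52 and 0.10 without deep and cycling cells; the G2 and M median without cycling cells was 0.00093. Pf4 in the control library was -0.18 without cells with microglia UMIs, and by means per cell -0.26 in the dexamethasone and -1.27 in the control library. The C-type lectin median was -0.60 at 100 UMIs. Without MHC class II-rich cells, chosen after seeing the data as was the Clec10a setting, high-to-low values in the dexamethasone library were -0.45 for the MHC class II median and -1.88 for Cd74, and -0.0466 for Cd74 in the control library; dexamethasone-to-control values were -0.12 for the C-type lectin median and -2.83 for Cd74. The Cd74 values of -1.88 and -2.83 rest on 2 UMIs in dexamethasone high cells. At 63 dexamethasone cells, depth limits every gene under about 20 UMIs.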

Other observations

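Some cells outside the border gate also carried 3 or more UMIs of Cd163, Clec10a and Ccl24, 14 from dexamethasone embryos (0.33% of kept cells) and 30 from controls (0.37%). They carried Clec10a at 700 CPM in dexamethasone cells and 732 CPM in control cells, against 726 CPM in control high cells. Cd163 was at 58.3 and 74.6 CPM and Mrc1 at 238 and 313 CPM in them. Of these cells, 9 from dexamethasone embryos and 20 from controls held 20 or more MHC class II UMIs, with Cd74 at 9315 and 8280 CPM and Clec10a at 1162 and 862 CPM. Those cells also held Plac8 at 3535 and 2423 CPM, Lyz2 at 12054 and 7653 CPM, and 6 and 7 UMIs of Flt3, a receptor of dendritic cell development. The 4 MHC class II-rich high cells of the dexamethasone library had Clec10a at 822 CPM, Cd74 at 6039 CPM, Lyz2 at 5549 CPM, Cd163 at 86.5 CPM and no Flt3 UMI.

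Set against 2274 dexamethasone and 4524 control cells with 3 or more microglia UMIs, a class set after seeing the data, F13a1 was higher in high cells by a log2 ratio of 4.04 in dexamethasone cells and 7.93 in control cells, Ccr1 by 5.87 and 6.21, and Ctla2a by 4.05 and 5.05. Those microglia held F13a1 at 96.3 CPM in the dexamethasone library, against 7.41 CPM in controls.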
